A study of Mus musculus with 12 samples.

Results

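The Wnt4 locus was taken as every deposited ERα or PR peak whose summit lay within 50 kb of the span of Wnt4 on mm10 (chromosome 4, 137277635 to 137299501, 21.9 kb, gene ID 22417), a window of 122 kb. It held 91 peaks of the 741142 in the 8 peak lists used. Chromatin came from whole mammary glands of mice kept to 8 weeks of age and given implants of E2 and P4, and all groups were harvested 4 days later, so no group was without hormone. Glands carried wild-type Esr1 (WT) or Esr1 with the Y541S substitution, and the estrogen receptor ERα or the progesterone receptor PR was precipitated, with 2 replicates for each of the 4 groups. The labels give neither the zygosity of Y541S, nor the strain, nor the number of animals in a replicate. The D542G samples (4) were left out here. The series title speaks of luminal cells and the sample labels of whole glands, and the cells behind a peak cannot be told from its position. The lists held 64488 to 113695 peaks, and their background coverage ran from 0.927 to 2.68, lowest and highest in replicates 2 and 1 of WT PR, so the lists differ in depth.

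Wnt4 encodes a secreted ligand of the Wnt family. In the mammary gland it is made by hormone-sensing luminal cells in response to progesterone and acts on neighbouring cells during side branching. PR is a ligand-activated transcription factor whose own gene is a target of ERα, so both receptors can be present in the same luminal cells.

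The sequence before the Wnt4 start is shown because no peak of any of the 8 libraries overlapped it. These are the 250 bases before the RefSeq start on the plus strand, chr4:137277385-137277634 (GRCm38.p6), written 5′ to 3′ with CG dinucleotides in capitals.
Wnt4 promoter: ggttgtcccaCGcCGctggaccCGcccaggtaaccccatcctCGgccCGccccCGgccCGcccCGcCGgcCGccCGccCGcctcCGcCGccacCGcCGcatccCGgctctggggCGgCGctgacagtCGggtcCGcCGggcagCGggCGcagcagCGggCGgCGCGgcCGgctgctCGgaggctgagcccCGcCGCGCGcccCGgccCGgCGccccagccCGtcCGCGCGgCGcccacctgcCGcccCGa
Its GC content was 85.2%, against a median of 52.4% over 32851 RefSeq promoter windows of the same length. It held 44 CG dinucleotides against a median of 6, and 0.539% of windows held as many. In single libraries, 22.1% to 38% of 27025 genes had a peak over this window. The nearest peak at Wnt4 lay 276 bp downstream, an ERα peak of WT replicate 2 at 137277910 to 137278094. Response element motifs were searched on both strands. The palindromic estrogen response element had 0 matches here and was in 0.0639% of windows, and its arm GGTCA, which lies within it, had 0 matches and was in 35.2%. The palindromic progesterone and glucocorticoid response element had 0 matches (0.387% of windows), and its arm TGTNCT, which can overlap it, had 0 matches (44.7%). These counts describe the letters of this window only.

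PR peaks were more numerous at Wnt4 than ERα peaks. In WT, PR had 10 peaks in replicate 1 and 15 in replicate 2, and in Y541S it had 17 and 15. ERα had 9 and 6 peaks in WT and 11 and 8 in Y541S. Within each genotype both PR values lay above both ERα values. Averaged over the genotypes, PR exceeded ERα by 5.75 peaks per library (two-sided exact permutation test of receptor within genotype, p = 0.0556, the smallest that 36 arrangements allow). The difference within replicate 1 was 1 peak in WT and 6 in Y541S, and within replicate 2 it was 9 and 7. PR lists were also longer than ERα lists in WT, 88237 ± 7431 against 68527 ± 5712 peaks, and close in Y541S, 107539 ± 8707 against 106269 ± 929 (SD, n = 2). As a share of its list, the locus held 0.0121% and 0.016% of WT PR peaks and 0.015% and 0.0148% of Y541S PR peaks, against 0.0124% and 0.0093% for WT ERα and 0.0103% and 0.00757% for Y541S ERα. By this share WT PR replicate 1 lay below WT ERα replicate 1.

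No genotype difference in peak number passed the test, which could not reach 0.05 with 2 against 2 libraries, and the values of WT and Y541S overlapped for ERα and met at 15 for PR. The ERα mean was 7.5 ± 2.12 in WT and 9.5 ± 2.12 in Y541S (SD, n = 2), a difference of 2 (two-sided exact permutation p = 0.667, smallest possible 0.333). The PR mean was 12.5 ± 3.54 in WT and 16 ± 1.41 in Y541S, a difference of 3.5 (exact permutation p = 0.667). For PR the difference was 7 within replicate 1 and 0 within replicate 2, and for ERα it was 2 within both. The genotype differences of PR and ERα differed by 1.5 (exact permutation p = 0.833). Where no source says that replicates are separate animals, these p-values measure only the spread between these libraries.

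**Figure D1:**
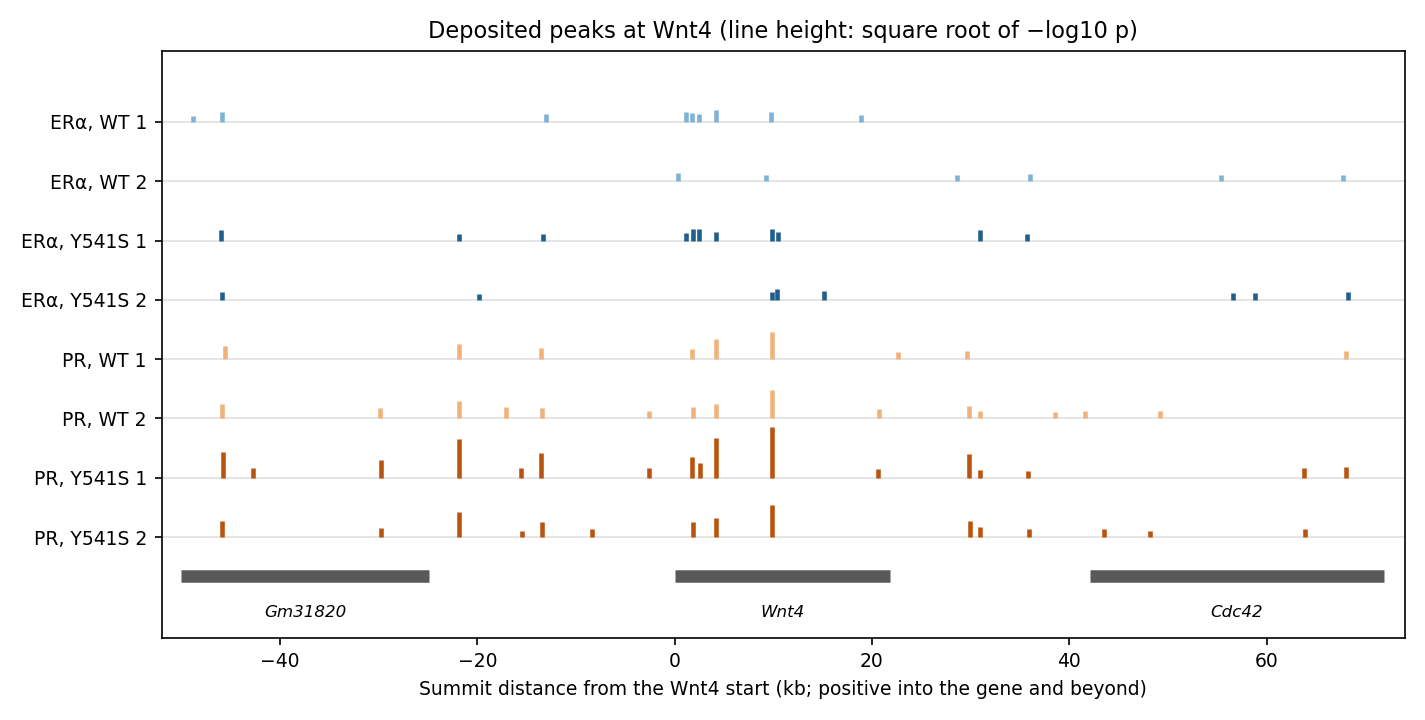
Positions of the 91 deposited peaks at Wnt4 in the 8 libraries (rows), with 1 exception. Of 2 nearby peaks of WT PR replicate 1 around −13.4 kb, only the better ranked is drawn. The x axis is the distance of the summit from the Wnt4 start in kb, line height is the square root of the deposited −log10 p, and bars below are gene spans from RefSeq, cut at the window. The tallest line in every PR row stands at 9.8 kb, inside Wnt4, and ERα rows hold lower lines.

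Overlapping peaks of all 8 libraries formed 37 sites, named here by the distance of their median summit from the Wnt4 start. Of these, 11 lay inside Wnt4, 8 inside Cdc42, the gene of a small GTPase downstream of Wnt4, 4 inside the long noncoding RNA gene Gm31820 upstream, and 14 outside genes. Exons and introns were not separated, because no transcript table was used here. In all, 10 sites had peaks of both receptors, 15 had PR only and 12 had ERα only. Genome-wide shares of these classes were not used here. A peak in a single library was all there was at 19 sites. Merged per receptor, 60.9% of ERα and 42.3% of PR regions at the locus were in a single library, against 71% and 53.2% genome-wide. No site had a peak in all 8 libraries, a class that held 3.76% of regions genome-wide, and the sites at −45.8 and 9.8 kb had a peak in 7. Both lacked only WT ERα replicate 2. Of the 8 sites inside Cdc42, 6 were single-library sites and none had PR in all 4 libraries.

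The strongest site was the PR site at 9.8 kb, inside Wnt4 at 137287199 to 137287929. Its PR peak ranked 1217 of 82982 by −log10 p in WT replicate 1 and 908 of 93491 in replicate 2, and for Y541S it ranked 701 of 113695 and 1108 of 101382. It was the best-ranked peak of the locus in all 4 PR libraries, and the 4 PR summits lay within 19 bp of each other. The deposited fold enrichment (summit coverage plus 1, over its local expectation plus 1) was 10.4 and 15.8 in WT and 20.1 and 16.6 in Y541S. The added 1 lowers folds most where the expectation is low. The Y541S folds were both higher than the WT folds, by a narrow margin for WT replicate 2. The summit coverage recovered from the deposited values was 73 and 63 reads in WT and 192 and 79 in Y541S, over expectations of 6.12, 3.06, 8.58 and 3.83. Y541S PR replicate 1 had the highest coverage, and in it the median peak of the whole list also had the highest −log10 p, 9.82 against 5 to 6.71 in the other PR lists. The ranks overlapped between the genotypes, and without that library the Y541S fold of 16.6 stood beside 15.8 in WT replicate 2.

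At the same 9.8 kb site ERα peaks ranked lower in their lists than the PR peaks did in theirs. ERα ranked 22990 of 72566 in WT replicate 1, 13603 of 106926 and 65181 of 105612 in Y541S replicates 1 and 2, and had no peak in WT replicate 2. In Y541S replicate 1 it was the best-ranked ERα peak of the locus. The folds were 3.76, 5.13 and 3.2, all below the 4 PR folds. The median ERα summit minus the median PR summit was −13.5 bp, with ERα summits spread over 165 bp.

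A separate ERα site followed at 10.5 kb, at 137287934 to 137288289, also inside Wnt4. Both Y541S libraries had an ERα peak there, WT had none, and no library had a PR peak there. The PR peak of WT replicate 1 at the 9.8 kb site ended at 137287929, just short of it, so the separation rests on the 1 bp overlap rule. Its rank was 38840 of 106926 in Y541S replicate 1 and 13207 of 105612 in replicate 2, where it was the best-ranked ERα peak of the locus. Folds were 3.59 and 4.97, on 13 and 15 reads over expectations of 2.9 and 2.22. It was the only Y541S-only ERα region at Wnt4, a class that held 4.48% of the 219945 ERα regions genome-wide, and 49.4% of coding genes had at least 1 within 50 kb. A count of 1 is thus near the background.

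**Figure D2:**
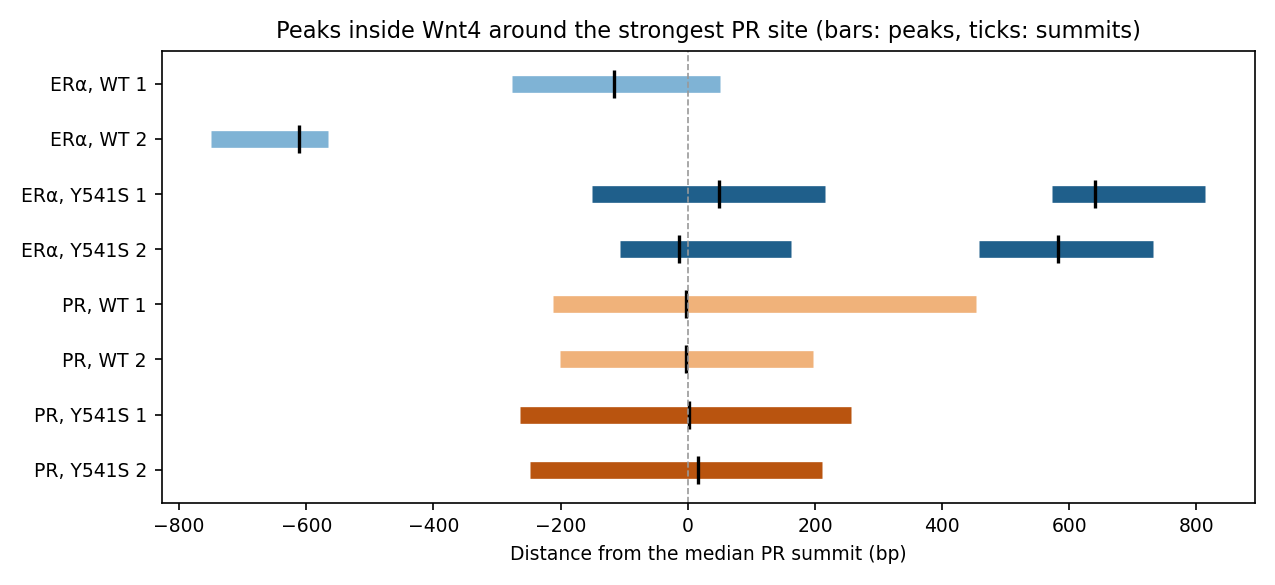
Peaks inside Wnt4 around the strongest PR site, in bp from the median PR summit. Bars are deposited peaks of the 8 libraries and ticks are summits. PR summits fall within 19 bp, 3 ERα peaks overlap them, and the peaks on the right are the ERα peaks present in both Y541S libraries only.

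PR had 26 regions at Wnt4 when only its 4 libraries were merged, and 7 of them had a peak in all 4, called constant here (26.9%, against 19.8% of all PR regions). Besides the 9.8 kb site these were at −45.8 kb inside Gm31820, at −21.8, −13.4 and 29.9 kb outside genes, and at 1.8 and 4.2 kb inside Wnt4. Inside the gene there were thus 3 of the 7, and the other 4 flanked it on both sides.

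The PR site at −21.8 kb (137255485 to 137256207) was second in rank at the locus in replicate 2 of both genotypes. Its ranks were 8637 and 6607 for WT, and 3235 and 3436 for Y541S, that is 10.4% and 7.07% of the list against 2.85% and 3.39%. Both Y541S ranks were better than both WT ranks. The fold was 6.18 and 9.38 in WT and 19.3 and 13.2 in Y541S. The only ERα peak here was in Y541S replicate 1, at rank 93538 of 106926.

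The PR site at 4.2 kb (137281499 to 137282083) ranked 3858 and 13482 in WT and 3038 and 8882 in Y541S. It was second at the locus in replicate 1 of both genotypes, and both replicate 1 libraries ranked it better than both replicate 2 libraries. The fold was 7.42 and 6.01 in WT and 12.6 and 7.52 in Y541S. In ERα it had a peak in WT replicate 1, the best-ranked ERα peak of that library at the locus (10305 of 72566, fold 4.38), and in Y541S replicate 1 (45958 of 106926), and in neither replicate 2.

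Of the remaining constant PR sites, the one at 1.8 kb (137279254 to 137279653) ranked at 32.3% and 25% of the list in WT and 17.4% and 16.6% in Y541S. The site at −13.4 kb ranked at 22.7% and 32% in WT and 11.8% and 19.4% in Y541S. The site at 29.9 kb (137307127 to 137307926), beyond the gene end, ranked at 65.1% and 20.7% in WT and 12.7% and 14.7% in Y541S. At these 3 sites both Y541S ranks, as percent of the list, were better than both WT ranks, at 29.9 kb mostly against WT replicate 1. The Y541S PR lists were longer than the WT ones. By rank number the order did not hold at −13.4 kb, with 18867 and 29890 in WT and 13425 and 19705 in Y541S. The site at −45.8 kb ranked at 13.5% and 12% in WT and 11.2% and 16.3% in Y541S, and there the genotypes overlapped in these percents.

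Over the 7 constant PR sites, ranks were compared as percent of the list. Both Y541S libraries ranked the site better than both WT libraries at 4, and the reverse held at 0. Genome-wide, 26.4% of the 38120 PR regions in all 4 libraries had such better ranks in Y541S and 10.4% the reverse. Within replicate 1 the Y541S percent rank was better at 7 of the 7 sites and within replicate 2 at 5. These counts depend on list length, since the Y541S PR lists were longer. By rank number the Y541S order was lost at −13.4 kb. At −45.8 kb both WT rank numbers, 11226 and 11206, were better than both Y541S ones, 12779 and 16522. The fold was higher in both Y541S than in both WT libraries at all 7 sites, where 53.3% of constant PR regions showed the same. Folds were not scaled between libraries, and the 7 sites share the same 4 libraries, so they are not separate tests of the genotypes.

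**Figure D3:**
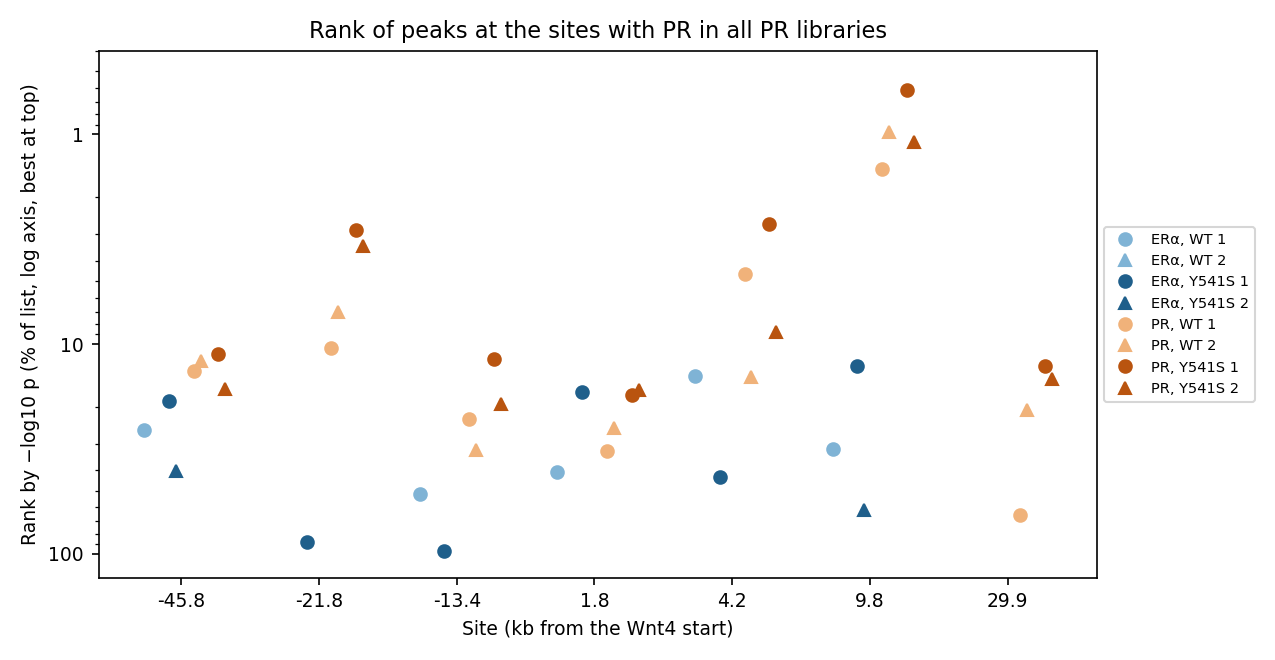
Rank of the best peak at each of the 7 sites with PR in all 4 PR libraries, as percent of the list (log axis, best at the top), for each library of both receptors. At −21.8 kb both Y541S PR libraries lie at 2.85% and 3.39%, above WT at 7.07% and 10.4%, and at 9.8 kb the 4 PR libraries mix between 0.617% and 1.47%. Missing ERα markers mean no peak, and the WT ERα marker at −13.4 kb belongs to a peak beside the PR region.

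**Figure D4:**
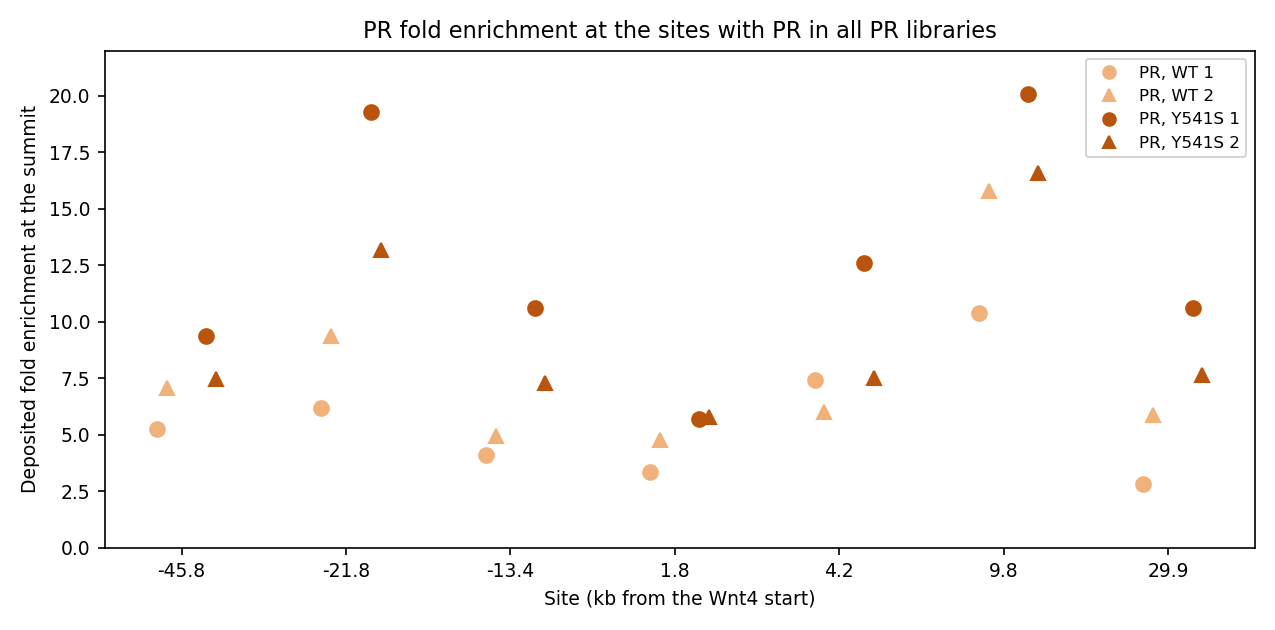
Deposited fold enrichment of PR at the same 7 sites in each PR library. Circles are replicate 1 and triangles replicate 2. At each site the Y541S markers both lie above the WT markers, most narrowly at 4.2 kb (7.52 against 7.42), and by more at −21.8 kb (13.2 against 9.38).

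Y541S-only PR regions, those with a PR peak in each Y541S library but not in WT, numbered 3, and WT-only PR regions 0, against 6.92% and 0.558% of the 192601 PR regions genome-wide. The 3 lay at −15.5, 35.9 and 63.8 kb, the last inside Cdc42. All were weak. At −15.5 kb the ranks were 73917 of 113695 and 99064 of 101382 in Y541S replicates 1 and 2, with folds of 3.48 and 2.71. At 35.9 kb they were 111027 and 76891, with folds of 2.51 and 3.42, and this site also had ERα peaks in WT replicate 2 and Y541S replicate 1. At 63.8 kb they were 73989 and 82383, with folds of 3.69 and 3.21. None of the 3 remained at −log10 p of at least 5 in both libraries.

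A further pair of PR regions, at −29.8 kb inside Gm31820 and at 31 kb, had peaks in both Y541S libraries and in WT replicate 2. The −29.8 kb site ranked 33982 of 93491 in WT replicate 2 and 28208 and 60595 in Y541S. WT PR replicate 1 lacked both, and it had the highest background coverage of the PR lists and the fewest PR peaks at the locus. In all, 12 PR regions of the locus were in both Y541S libraries and 7 in both WT libraries, where 36.6% and 22.3% of all PR regions were. Of regions formed within a genotype, 12 of 20 were in both Y541S replicates (60%, genome 49.8%) and 7 of 18 in both WT replicates (38.9%, genome 32.1%).

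ERα had 23 regions at Wnt4 and none in all 4 ERα libraries, a class that held 8.92% of ERα regions genome-wide. No region was in both WT libraries (11.2% genome-wide), 3 were in both Y541S libraries (19.3%), and WT-only regions numbered 0 (0.63%). The 3 were those at −45.8, 9.8 and 10.5 kb. Within WT, 0 of 15 ERα regions were in both replicates, against 21.8% genome-wide, and within Y541S 3 of 16 were (18.8%, genome 25.3%). The best ERα rank at the locus was 14.2% and 52.6% of the list for WT, and 12.7% and 12.5% for Y541S. All 4 best PR ranks, 0.617% to 1.47%, were better than these, an order found at 15.2% of coding genes, with the reverse order at 16.7%.

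The absence of a constant ERα region rested on WT ERα replicate 2. Its 6 peaks at the locus, at 0.4, 9.2, 28.6, 35.9, 55.4 and 68.1 kb, ranked from 33889 to 63900 of 64488, and 1 had −log10 q of at least 1.3. Without this library 2 ERα regions were in all of the other 3. That library had the shortest list and a background coverage of 1.3, against 2.39 in WT ERα replicate 1. WT PR replicate 2 had a lower coverage, 0.927, with 15 peaks at the locus, and a link of peak number with depth was not tested.

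ERα peaks at the constant PR regions differed more between replicate numbers than between genotypes. Of the 7 regions, an ERα peak overlapped 4 in WT replicate 1 and 0 in WT replicate 2, and 6 in Y541S replicate 1 and 2 in Y541S replicate 2. Genome-wide the shares of constant PR regions with an ERα peak were 55.2%, 41%, 66.6% and 53.5% in the same order. Seen from ERα, 5 of 9 peaks in WT replicate 1 and 9 of 11 in Y541S replicate 1 overlapped a PR peak in the matching library (same genotype, same number), and 0 of 6 and 2 of 8 in replicate 2, where the genome-wide shares were 36.2%, 45.2%, 38.9% and 37.4%.

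Inside the gene, replicate 1 also carried a run of ERα peaks near the start. Sites at 1.2, 1.8, 2.5 and 4.2 kb each had an ERα peak in WT replicate 1 and Y541S replicate 1 and none in replicate 2. At 2.5 kb ERα ranked 43712 of 72566 in WT and 15510 of 106926 in Y541S, and at 1.2 kb, where PR had no peak, it ranked 16303 and 68228. The order of the genotypes thus turned between these neighbouring sites. At the constant PR sites of 1.8 and 4.2 kb, the median ERα summit minus the median PR summit was −26.5 bp and 29 bp.

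Set beside all 21887 coding genes with the same 50 kb rule, Wnt4 had a better best rank than most genes for PR and a poorer one than most for ERα. Its best PR rank was matched or bettered at 8.96% and 7.01% of genes in WT and 5.3% and 8.11% in Y541S. Its best ERα rank was matched or bettered at 53.9% and 78.6% of genes in WT and 64.4% and 66.9% in Y541S. In peak number it was nearer the middle for ERα: 38.9% and 52.9% of genes had as many ERα peaks or more in WT and 43.2% and 58.8% in Y541S, against 37% and 19% for PR in WT and 19.3% and 20.4% in Y541S. With 7 PR regions in all 4 libraries it was above the median of 3 and the upper quartile of 6, and 19.4% of genes had as many. With 3 Y541S-only PR regions it was matched or exceeded by 12.4%. Longer genes have wider windows, which this count does not correct. Of the 4240 genes with at least 7 constant PR regions, 51 (1.2%) had no ERα region in all 4 libraries, like Wnt4, for which this rested on WT ERα replicate 2.

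**Figure D5:**
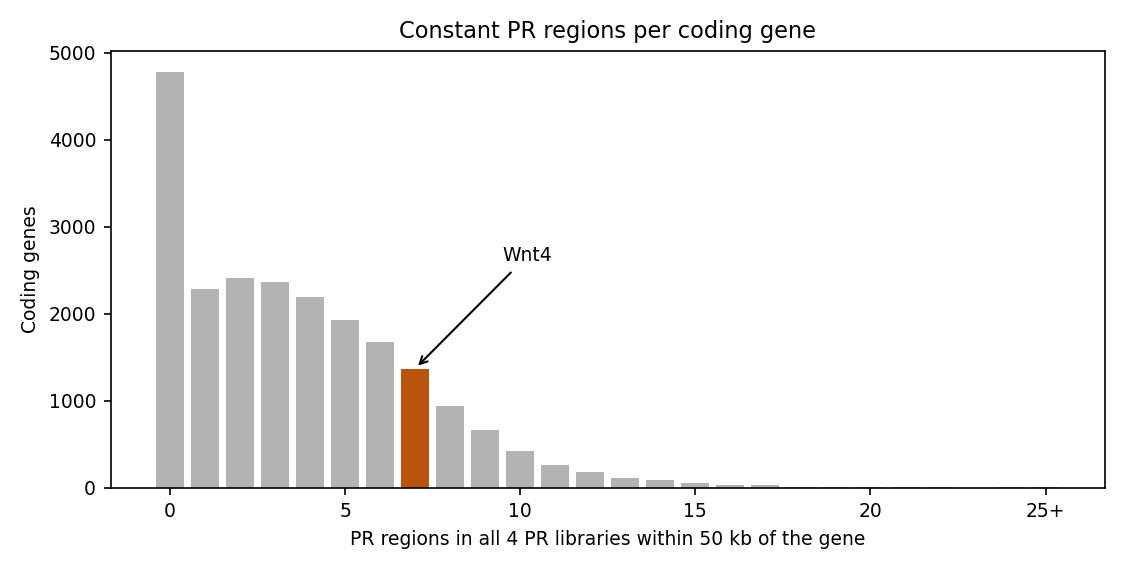
Number of coding genes by their count of PR regions in all 4 PR libraries within 50 kb, with counts of 25 or more in the last bar. Wnt4 is in the coloured bar at 7, above the median gene at 3.

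The 5 coding genes whose peak numbers were most like those of Wnt4 were Hdc, Fam189a2, Gm42323, Gm52236 and Guca1a. Likeness was the Euclidean distance of log2(peaks + 1) over the 8 libraries, with Cdc42 left out as a neighbour, and it was 0.375 for Hdc and 0.443 to 0.457 for the others. Hdc, the histidine decarboxylase gene, had 9 and 6 ERα peaks in WT, 13 and 7 in Y541S, 11 and 14 PR peaks in WT and 15 and 14 in Y541S. It had 5 constant PR regions and 1 constant ERα region. All 5 genes had at least 1 constant ERα region, which Wnt4 did not.

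Other Wnt pathway genes mostly carried constant regions of both receptors. Of 67 genes of the ligand, receptor, R-spondin, secretion, intracellular and inhibitor lists, 62 had a PR region in all 4 libraries (92.5%, against 78.1% of all coding genes) and 57 a constant ERα region (85.1%, against 72.4%). A Y541S-only PR region was near 54 (80.6%, against 55.2%) and a Y541S-only ERα region near 44 (65.7%, against 49.4%). WT-only regions were near 7 for PR (10.4%, against 9.64%) and 12 for ERα (17.9%, against 11.5%). These shares are not corrected for gene length, neighbouring genes can share a region, and the differences were not tested. The median number of constant PR regions was 3, as over all coding genes. At least as many as Wnt4 were found at 17 of the 67, and at 19.4% of all coding genes.

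Among the 18 other Wnt ligand genes, all had a constant PR region and 15 a constant ERα region, against 78.1% and 72.4% of all coding genes. Wnt7b had 10 constant PR regions and 5 Y541S-only ones, and Wnt5b had 9 and 2, with 6 Y541S-only ERα regions. The other 16 had fewer constant PR regions than Wnt4. Like Wnt4, Wnt2, Wnt5a and Wnt16 had no constant ERα region, with 2, 3 and 2 constant PR regions. The best PR rank of Wnt2b ran from 210 to 818, of Wnt3 from 283 to 804 and of Wnt11 from 856 to 1584 over the 4 libraries, beside 701 to 1217 for Wnt4.

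Of 16 receptor and coreceptor genes, 15 had a constant PR region and 15 a constant ERα region. Of all coding genes, 78.1% had a constant PR region and 72.4% a constant ERα region. Ror2, a receptor of Wnt5a-type signals, had 14 constant PR regions and Lrp5, a Wnt coreceptor, 13, and Lrp6 and Ror1 had 10 each. Fzd6 had 7 constant and 4 Y541S-only PR regions and no constant ERα region. Among R-spondins, secreted enhancers of Wnt signals, and their receptors, all 9 had a constant PR region. Znrf3, which encodes a ligase that removes Wnt receptors, had 14 and Lgr4, an R-spondin receptor, 12, and Rspo1 had 2. Of the 3 genes of the secretion list, Porcn, whose enzyme acylates Wnt proteins, had 9, Notum, a secreted Wnt deacylase, 7 and Wls 1.

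For the lists that follow, 78.1% of all coding genes had a constant PR region and 55.2% a Y541S-only one. Among 12 intracellular and target genes, 10 had a constant PR region and 12 a Y541S-only one. Tcf7l1 and Tcf7l2, transcription factors that act with β-catenin, had 11 each, and Tcf7l2 also had 5 Y541S-only PR and 4 Y541S-only ERα regions with no constant ERα region. Of 9 secreted inhibitor genes, 7 had a constant PR region, led by Sfrp5 with 6. Of the 7 progesterone paracrine genes, 6 had one. Tnfsf11, the gene of RANKL, had 6, with best ranks of 75 to 214 over the 4 libraries, Areg, an EGF receptor ligand, had 3, and Adamts18, a matrix protease gene, had 2 besides 4 Y541S-only ones.

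The edge of the window bears on the ERα count. Just inside lay the ERα peak of WT replicate 1 at −48.8 kb (rank 70857, −log10 p 2.74), and just outside a PR peak of Y541S replicate 2, 51.1 kb beyond the gene (rank 75324, −log10 p 4.83). Between 50 and 100 kb there were 4 ERα regions in all 4 libraries, all downstream. One covered the start of Cdc42 at 137357481 to 137358108, 58.2 kb beyond Wnt4, and ranked from 10941 to 46289. The best ranked, at 137396612 to 137397602 and 97.5 kb beyond Wnt4, ranked from 547 to 729. The nearest constant ERα region to Wnt4 was thus the one at the Cdc42 start. A WT-only ERα region lay 72.7 kb beyond the gene, at ranks from 43090 to 71399.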

How the data were processed

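Peaks were called by the authors per library and deposited as 1 list each, without pooling, on mm10, per the submitters' processing notes. The sources used here do not name the caller, the aligner or any use of input. Per the labels' protocols, glands were fixed, chromatin was sheared to 300 to 500 bp and 30 µg was precipitated with 4 µg of antibody. The deposited columns used were the fold, the −log10 p (lowest value 2), the −log10 q and the summit offset, and the deposited score follows −log10 p. The fold is a ratio at the summit, with 1 added to both coverage and expectation. None is normalised between libraries. No control library was used here. Signal too weak to be called leaves no entry, so a missing peak is not a measured zero. Per-gene or per-read counts were not used here, and intervals were not computed.

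Summit coverage and expectation were recovered from fold and −log10 p (tolerance 1e-04 on −log10 p, relaxed for very strong peaks), for at least 99.9956% of peaks in each list. Background coverage is the 0.001 quantile of the expectation. Recovery and region classes were tested on data simulated with the same formulas and with regions far apart. This checked the code only, not how crowded peaks are classed. Ranks are by −log10 p within a list, and counts of better ranks compared them as percent of the list. Peaks overlapping by at least 1 bp formed regions, per receptor or over all 8 libraries. Y541S-only means a peak in each Y541S library and none in WT. Genes came from RefSeq (GRCm38.p6, equivalent to mm10), and regions were linked to coding genes by midpoint within 50 kb. Peak numbers were compared with exact permutation tests (Python 3.11.15, numpy 2.4.6, pandas 2.3.3, scipy 1.17.1). ERα and PR libraries of a replicate may share chromatin. Apart from the replicate block below, tests over both receptors ignored this, and its effect on their p-values was not tested. The named genes were Wnt4, its neighbours, the 5 genes most like it and the pathway members with most constant or with Y541S-only regions, and Wnt2, Wnt2b, Wnt3, Wnt5a, Wnt11, Wnt16, Fzd6 and Rspo1 were added after their values were seen. Members, lists and alternatives were chosen with earlier results of these data known. Alternatives were stricter thresholds, equal list lengths, scaled coverage, other windows, chained summits, left-out libraries and a replicate block.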

Additional observations from a re-analysis of the deposited data

How the results depend on the processing

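Of 103 alternative values, 83 kept the direction or stayed within 1.5 times, 20 moved by more and 0 reversed, but no test here could reach 0.05. The PR excess over ERα ranged from 3.5 peaks (window of 20 kb, exact permutation p = 0.222) to 7.5 (−log10 q of at least 1.3, p = 0.111), and from 4.5 to 7 with 1 library left out. With 1 library left out, the Y541S difference ranged from 0.5 (without WT replicate 2 or Y541S replicate 1) to 3.5 (without either of the others) for ERα, and from 1 (without WT replicate 1) to 6 (without WT replicate 2) for PR. Under the other settings it ranged from 1 to 6.5 for ERα and from 1 to 7 for PR, largest in the window of 100 kb (exact permutation p = 0.333 each). In a replicate block (differences within a number, exact sign-flip permutation) the values were unchanged at 2, 3.5 and 5.75, with p = 0.5, 1 and 0.125. The labels do not say that a number marks shared animals or chromatin, and deviations of same-numbered libraries correlated by 0.01 to 0.11 across genes, which does not settle it.

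Region counts moved more. Y541S-only PR regions, 3 as deposited, were 0 at −log10 p of at least 5, 1 among the 20000 strongest peaks, 1 with scaled coverage, 7 in the window of 100 kb, and 3 (without WT replicate 1) to 6 (without Y541S replicate 1) with 1 library left out. The 1 among the 20000 strongest was none of those 3. It was the constant site at 1.8 kb, whose WT peaks, ranked 26803 and 23336, fell outside the cut. Constant PR regions, 7 as deposited, were 4 among the 20000 strongest peaks. ERα regions in all libraries, 0 as deposited, were 4 in the window of 100 kb and 0 to 2 with 1 library left out. Y541S-only ERα regions, 1 as deposited, were 0 among the 20000 strongest, 2 in the window of 100 kb and 1 (without WT replicate 2) to 6 (without Y541S replicate 1) with 1 library left out. WT-only ERα regions, 0 as deposited, were 1 in the window of 100 kb and 0 to 5 (without WT replicate 1) with 1 library left out, and WT-only PR regions 0 to 4 (without WT replicate 1). Leaving out a library loosens the class definition. Short and shallow lists limit what can be called absent.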
